A study of Homo sapiens with 6 samples.

Results

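The 1117 peaks that DHX9 FLASH gave on chromosome 7 of HEK293 cells are described here, of 28449 peaks in all. HEK293 is a long-established human cell line that came from embryonic kidney. FLASH is a cross-linking and immunoprecipitation assay. Ultraviolet light fixes a protein to RNA in contact with it, an antibody recovers the protein, and the RNA fragments recovered with it are sequenced. All samples are irradiated HEK293 cells that also share the label XL1, which the sources used here do not explain, and the groups differ by antibody, labelled DHX9-mAb, DHX9-Rb or IgG-Rb (a control immunoglobulin), with 2 biological replicates each. The deposited values are 2 lists of peak positions and strands on the human assembly hg19, 1 for each DHX9 antibody, and each list stands for both of its replicates.

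The members are all peaks on chromosome 7 in either list, apart from those with a midpoint within 23.54 to 23.58 or 99.61 to 99.64 Mb. That leaves 221 DHX9-mAb and 896 DHX9-Rb peaks, with 0 DHX9-mAb and 10 DHX9-Rb peaks left out. Chromosome 7 was selected on these same peak numbers, because it made up less of the DHX9-mAb list than of the DHX9-Rb list. The numbers of both antibodies along it are therefore a description, and no test is attached to them. Peaks carry no height, fold or p-value, the depth behind them is unknown, and no value of a separate replicate or of IgG-Rb was used here. No replicate error can be given. The intervals below are 95% Wilson intervals on peak numbers. They cover counting error only and are too narrow where peaks lie in groups.

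DHX9 (RNA helicase A) belongs to the DExH family of helicases, is found mainly in the nucleus and unwinds double-stranded RNA and RNA-DNA hybrids. It binds double-stranded RNA through its own binding domains. Double-stranded stretches form within human transcripts where copies of the Alu repeat lie in opposite orientations and fold back on each other. Such copies are common in the introns of genes and in the untranslated ends of messenger RNAs. A row of peaks on 1 strand marks RNA made from that strand, and which genes these peaks fall in was not analysed here.

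DHX9-mAb gave fewer peaks for each DHX9-Rb peak on chromosome 7 than on the rest of the genome. Chromosome 7 held 3.24% of DHX9-mAb peaks (2.84 to 3.68) and 4.15% of DHX9-Rb peaks (3.89 to 4.42). The peak ratio, the number of DHX9-mAb peaks per DHX9-Rb peak, was 0.247 on chromosome 7 (0.213 to 0.286) and 0.319 on all other sequences (0.31 to 0.328). At the ratio of the other sequences, the 896 DHX9-Rb peaks would stand beside 285.9 DHX9-mAb peaks, which is 64.9 more than the 221 found. In covered sequence the picture was alike, with 45434 nt of DHX9-mAb and 189385 nt of DHX9-Rb on chromosome 7, a ratio of 0.24, against 0.301 elsewhere.

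Chromosome 7 lay near the low end of a continuous range. Its ratio was the second lowest of 23 chromosomes (1 to 22 and X), above that of chromosome 13 at 0.234, which rests on 25 DHX9-mAb and 107 DHX9-Rb peaks. Chromosomes 14, 2 and 3 came next with 0.257, 0.266 and 0.269, and their intervals overlapped that of chromosome 7. Chromosome X had the highest ratio, 0.377. The median over the 23 chromosomes was 0.287. In density chromosome 7 was ordinary, with 1.4 peaks of DHX9-mAb and 5.68 of DHX9-Rb per Mb between its first and last peak, and it ranked 12th of 23 from the lowest in DHX9-Rb peaks per Mb.

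**Figure D1:**
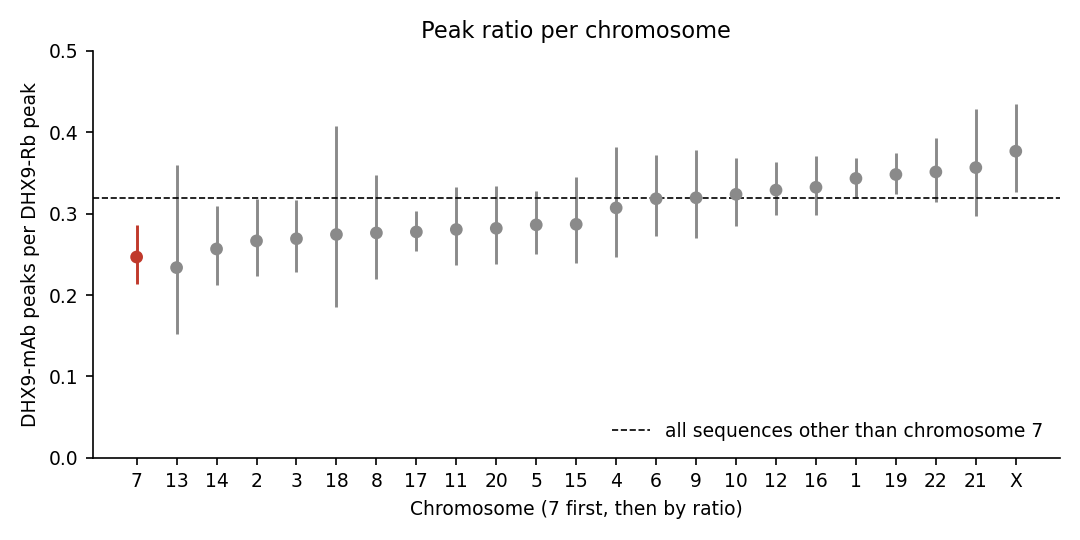
Peak ratio (DHX9-mAb peaks per DHX9-Rb peak) of chromosome 7, in red at the left, and of the other chromosomes from the lowest ratio to the highest, with bars for 95% Wilson intervals and a dashed line at the 0.319 of all sequences other than chromosome 7. Chromosome 7 stands at 0.247, close to chromosomes 13, 14, 2 and 3.

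The low ratio was the same on both strands of chromosome 7. It was 0.246 on the plus strand, from 99 DHX9-mAb and 403 DHX9-Rb peaks, and 0.247 on the minus strand, from 122 and 493. On the other sequences it was 0.318 on the plus strand and 0.32 on the minus strand. The minus strand held more of the peaks here than elsewhere in both lists, with 44.8% of DHX9-mAb and 45.0% of DHX9-Rb peaks on the plus strand of chromosome 7, against 52.5% and 52.6% on the other sequences.

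The ratio was also below 0.319 on both sides of the longest stretch without a peak. That stretch of 11.1 Mb ran from 45049668 to 56102102. Before it lay 38 DHX9-mAb and 139 DHX9-Rb peaks, a ratio of 0.273 (0.191 to 0.391). After it lay 183 and 757 peaks, a ratio of 0.242 (0.206 to 0.284). The interval before the stretch included 0.319, and that after it did not. When the chromosome was cut into 4 parts with 224 DHX9-Rb peaks each, the parts held 54, 44, 69 and 54 DHX9-mAb peaks in order of position. Their ratios were 0.241, 0.196, 0.308 and 0.241. The lowest part ran from 66015273 to 101765429 and the highest from 101767166 to 128215725. Their intervals, 0.142 to 0.271 and 0.235 to 0.403, overlapped. Of the 4 parts, only the lowest had an interval wholly below the 0.319 of the other sequences.

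Peaks were next counted in bins of 1 Mb by their midpoints, to see whether few bins or most of the chromosome carried the shortfall. Peaks lay in 68 bins of chromosome 7. DHX9-Rb had peaks in 66 of them and DHX9-mAb in 47, and 45 bins had both. The 21 bins with DHX9-Rb alone were thin, with 49 peaks in all and at most 9 in a bin. A bin counts as short here when it holds fewer DHX9-mAb peaks than its DHX9-Rb peaks times 0.319, and the difference is its shortfall. By this count 51 bins were short, by 89.0 peaks together, and 17 had a surplus, of 24.0 peaks together. The 21 bins with DHX9-Rb alone are among the 51 by definition. The share of short bins over all sequences was not counted for bins of every size, so the 51 are only a description.

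Most well-filled bins were short. Of the 26 bins with at least 10 DHX9-Rb peaks, 22 (84.6%) had a ratio below 0.319, where the background over the 488 such bins of all sequences was 59.0%. The median ratio of these bins was 0.207 on chromosome 7 (interquartile range 0.17 to 0.291) and 0.288 on the other sequences (0.2 to 0.383). Among the 20 chromosomes with at least 10 such bins, chromosome 7 had the largest share of bins below the ratio of all other sequences and the lowest median bin ratio. Chromosomes 3 and 15 followed in that share, both with 72.7%, and chromosome 17 had 72.5%. Bins with fewer than 10 DHX9-Rb peaks differed little. They held 40 DHX9-mAb and 151 DHX9-Rb peaks in 42 bins of chromosome 7, a ratio of 0.265, against 0.291 in 855 such bins elsewhere. No interval was computed for this ratio, which rests on few DHX9-mAb peaks, so it does not show that these bins were lower.

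**Figure D2:**
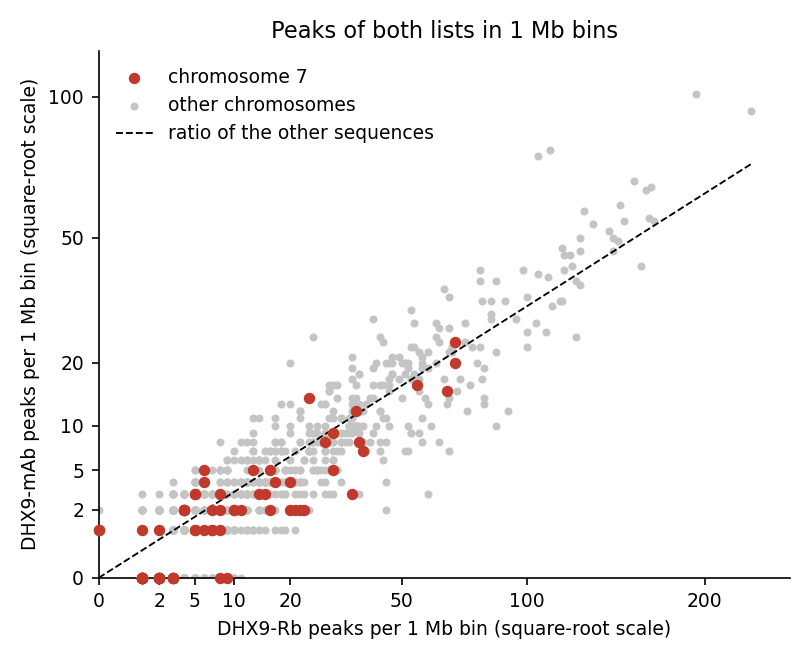
DHX9-mAb peaks (vertical axis) against DHX9-Rb peaks (horizontal axis) in 1 Mb bins, both on square-root scales, with chromosome 7 in red, the other chromosomes in grey and a dashed line at 0.319 DHX9-mAb peaks per DHX9-Rb peak. The mitochondrial chromosome is left out. Of the 26 bins of chromosome 7 with at least 10 DHX9-Rb peaks, 22 lie below the line.

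Few bins were very low. A ratio at or below 0.5 times that of the other sequences, that is 0.16, was reached by 6 of the 26 bins (23.1%), where the background over all sequences was 13.7%. No bin of the 26 reached 2 times the ratio of the other sequences, which 3.07% of all such bins did. With peaks within 50 nt merged 1 of 26 did, the bin from 44 to 45 Mb at 2.12 times, and with bins of at least 5 DHX9-Rb peaks 2 of 41 did. No background of such high bins was counted under these settings. The 6 low bins together held 13 DHX9-mAb and 137 DHX9-Rb peaks, a ratio of 0.0949. The last bin inside the limit had 0.125, from 72 to 73 Mb, and the first outside had 0.167, from 56 to 57 Mb. Without the 6 low bins chromosome 7 had 208 DHX9-mAb and 759 DHX9-Rb peaks, a ratio of 0.274. The other sequences without their own low bins had 0.336.

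The shortfall did not go away with any 1 bin. Leaving out each bin in turn gave ratios between 0.237 and 0.253. Taken from the largest shortfall down, 17 bins had to be left out before the remainder reached 0.319, and these held 492 (54.9%) of the DHX9-Rb peaks. The same count was 15 on chromosome 17 and 11 on chromosome 2, and at most 7 on the other chromosomes with a ratio below that of their own remainder. Leaving out bins in this order raises the ratio by construction. The number depends on the size of the shortfall as well as on its spread, so it does not measure spread alone. That size was 64.9 peaks on chromosome 7, which was selected on these peak numbers. It was 96.5 on chromosome 17, 29.5 on chromosome 2 and 32.6 on chromosome 14, where 7 bins had to be left out.

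**Figure D3:**
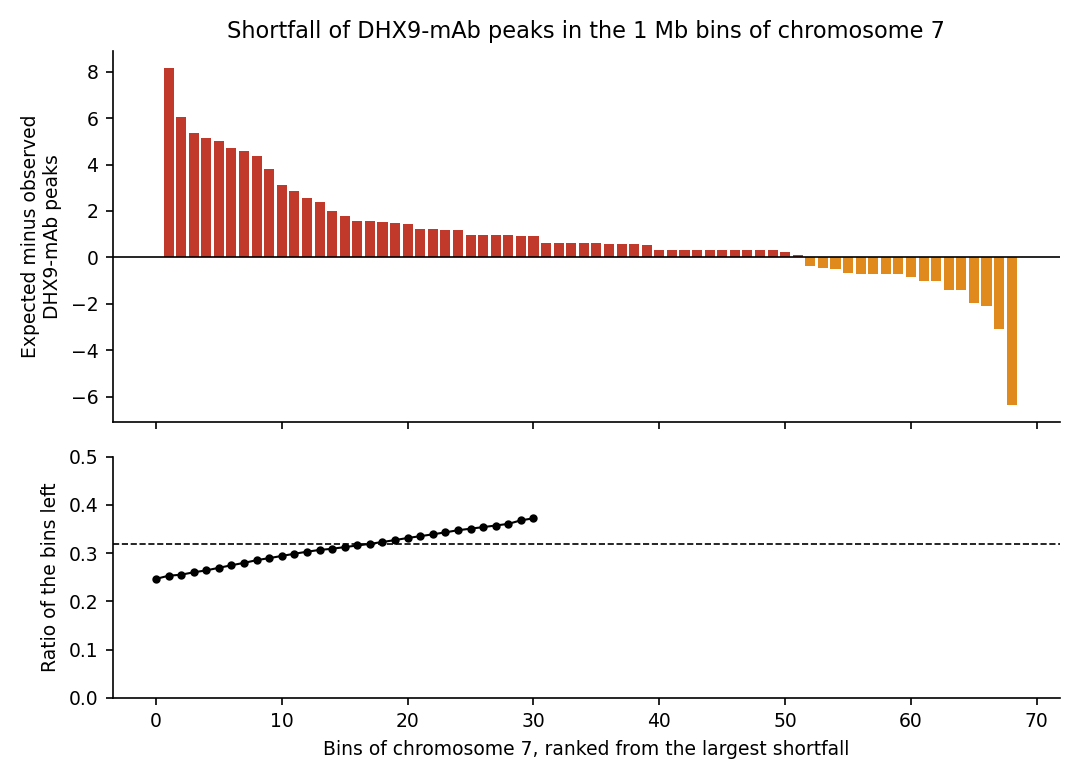
Upper panel, expected minus observed DHX9-mAb peaks in each of the 68 bins of chromosome 7, from the largest shortfall (red) to the largest surplus (orange). Lower panel, the peak ratio of the bins left after those up to each rank are left out, for the first 30 ranks, with a dashed line at 0.319, which is reached after 17 bins.

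The 6 bins with the largest shortfall held 31 DHX9-mAb and 205 DHX9-Rb peaks and were short by 34.4 peaks together, of the 89.0 summed over all 51 short bins. The bin from 23 to 24 Mb led with 3 DHX9-mAb and 35 DHX9-Rb peaks, a ratio of 0.0857 (0.028 to 0.263) and a shortfall of 8.17. All 3 DHX9-mAb peaks and 32 of the DHX9-Rb peaks were on the minus strand there. They lay mostly in a pair of neighbouring rows, one with 2 DHX9-mAb and 13 DHX9-Rb peaks (chr7:23439873-23461442) and one with 1 and 16 (chr7:23473875-23496039).

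The bin from 99 to 100 Mb came next in shortfall because it was large, not because its ratio was very low. It held 15 DHX9-mAb and 66 DHX9-Rb peaks, a ratio of 0.227 (0.131 to 0.395), in 12 separate rows. Rows of that bin differed from each other. A plus-strand row from 99070923 to 99080493 had 5 DHX9-mAb and 13 DHX9-Rb peaks, and another from 99957563 to 99965550 had 4 and 12. A plus-strand row between them, from 99111544 to 99117464, had 0 and 8, and a minus-strand row from 99711894 to 99716431 had 0 and 9.

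The other bins of this group were built from small and middling rows. The bin from 129 to 130 Mb had 2 DHX9-mAb and 23 DHX9-Rb peaks (ratio 0.087), of which 9, all from DHX9-Rb, lay in 1 minus-strand row from 129670455 to 129686104. From 101 to 102 Mb there were 7 and 38 peaks (ratio 0.184), all on the plus strand, and 7 of its 12 rows had no DHX9-mAb peak. The largest of these empty rows held 11 DHX9-Rb peaks. The bin from 66 to 67 Mb had 2 and 22 peaks (ratio 0.0909), of which 1 and 10 lay in 1 minus-strand row. The bin from 140 to 141 Mb had 2 and 21 (ratio 0.0952). In the last of these both DHX9-mAb peaks lay in 1 of 9 rows, on the minus strand from 140093110 to 140096248.

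Short bins adjoined each other in places. The longest stretches of adjoining short bins ran over 6 bins each. From 96 to 102 Mb they held 26 DHX9-mAb and 136 DHX9-Rb peaks, a ratio of 0.191 (0.126 to 0.29) and a shortfall of 17.4. From 72 to 78 Mb they held 8 and 58, a ratio of 0.138 (0.0669 to 0.284) and a shortfall of 10.5. The stretch from 64 to 67 Mb had 12 and 69, and that from 139 to 142 Mb had 3 and 31. Such stretches were put together from the values themselves, so their ratios only describe them.

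The bins with a surplus had small ones apart from 1. The bin from 44 to 45 Mb held 14 DHX9-mAb and 24 DHX9-Rb peaks, a ratio of 0.583 (0.305 to 1.11) and a surplus of 6.34. Of its 14 DHX9-mAb peaks, 13 lay in a minus-strand row (chr7:44613882-44620314) beside 15 DHX9-Rb peaks, and the other lay in a row of 1 DHX9-mAb and 1 DHX9-Rb peak (chr7:44018426-44018593). A minus-strand row of the same bin, from 44872014 to 44878697, had 0 and 7. The bin from 113 to 114 Mb had 5 and 6 peaks, that from 149 to 150 Mb had 4 and 6, and that from 105 to 106 Mb had 24 and 69. Counted in covered nucleotides, the bin from 105 to 106 Mb turned into a slight shortfall, at 0.969 times the ratio of the other sequences.

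Rows of peaks keep to 1 strand, which bins do not, and whether a row matches a transcript was not analysed here. A row here is a set of peaks of either list on 1 strand with gaps of at most 10 kb between neighbours. Chromosome 7 had 261 rows, of which 253 held a DHX9-Rb peak, 105 a DHX9-mAb peak and 97 both. The 8 rows of DHX9-mAb alone held 9 peaks. Of the 253 rows with a DHX9-Rb peak, 61.7% had no DHX9-mAb peak, where the background over all sequences was 54.9%.

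Set against rows of the same size elsewhere, the ratio was lower mainly in rows of 5 to 19 DHX9-Rb peaks, and not in single peaks. The choice of reference matters here. Against the 0.319 of all other sequences, single peaks were below and rows of 20 or more were not. Rows with a single DHX9-Rb peak had a ratio of 0.234 on chromosome 7 (0.157 to 0.349, 124 rows) and 0.197 on the other sequences (0.177 to 0.219). In rows of 2 to 4 DHX9-Rb peaks the ratios were 0.227 (0.166 to 0.311) and 0.256 (0.239 to 0.274). In rows of 5 to 9 they were 0.171 (0.118 to 0.247) and 0.29 (0.272 to 0.309), the widest gap of the 5 classes. Rows of 10 to 19 had 0.232 (0.168 to 0.32) and 0.336 (0.317 to 0.355). Rows of 20 or more had 0.326 (0.243 to 0.438) and 0.385 (0.367 to 0.405), and rest on 4 rows of chromosome 7. For single peaks, rows of 2 to 4 and rows of 20 or more, the interval of chromosome 7 included the ratio elsewhere.

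Rows of 5 to 9 DHX9-Rb peaks also stood farthest from the background in the share missed whole by DHX9-mAb. Of 30 such rows on chromosome 7, 12 (40.0%, interval 24.6 to 57.7) had no DHX9-mAb peak, where the background over all sequences was 21.2%. Among single peaks the share without DHX9-mAb was 78.2% on chromosome 7, where the background was 81.2%. Among rows of 2 to 4 it was 57.5%, beside a background of 51.4%. Among rows of 10 to 19 it was 1 of 15, beside a background of 4.12%, and among rows of 20 or more 0 of 4, beside 0.575%. On the other sequences the ratio went up with every step in row size, whereas on chromosome 7 it was lowest in the middle class. The interval of that class on chromosome 7 overlapped those of its other classes. Rows join peaks of either list, so DHX9-mAb peaks can themselves make a row larger. How much of the rise with row size follows from this was not tested.

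**Figure D4:**
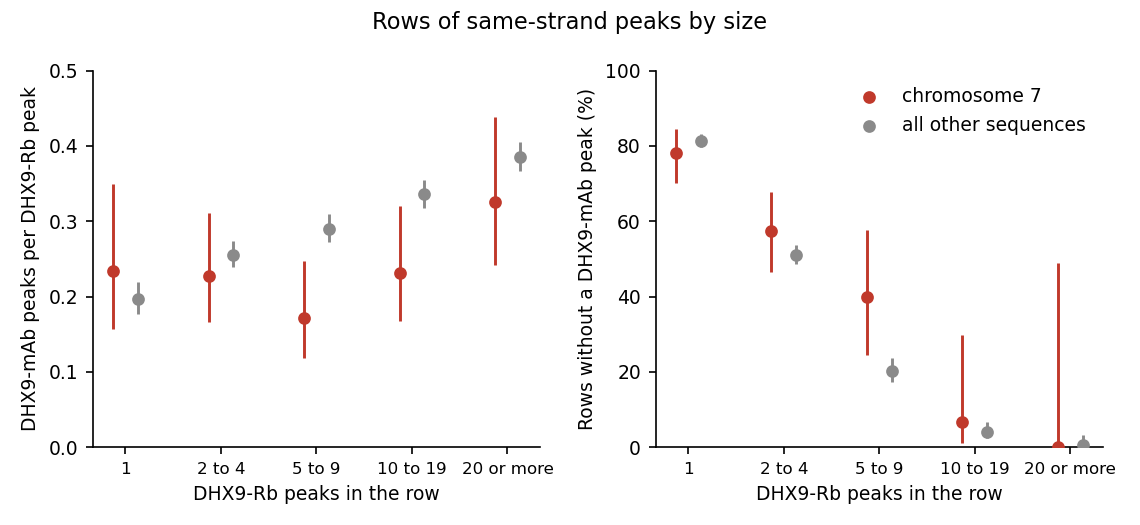
Peak ratio (left) and percentage of rows without a DHX9-mAb peak (right) by the number of DHX9-Rb peaks in the row, for chromosome 7 (red) and all other sequences (grey), with bars for 95% Wilson intervals. The gap is widest in rows of 5 to 9 DHX9-Rb peaks, 0.171 against 0.29 and 40.0% against 20.3%.

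The 12 empty rows of this class were scattered along the chromosome. They lay in 11 different bins, 7 on the plus strand and 5 on the minus strand, and held 82 DHX9-Rb peaks. With 9 DHX9-Rb peaks each, the largest were the minus-strand rows at chr7:99711894-99716431 and chr7:129670455-129686104. The plus-strand rows at chr7:56142121-56159836 and chr7:99111544-99117464 had 8 each. Rows with 7 lay at chr7:44872014-44878697 on the minus strand and at chr7:72364433-72373361 and chr7:77367772-77371647 on the plus strand. The 5 smaller ones held 5 or 6. Of the other 18 rows of the class, 10 had a single DHX9-mAb peak (55.6%, against 35.0% of 506 rows elsewhere). Those 18 rows had 33 DHX9-mAb and 111 DHX9-Rb peaks, a ratio of 0.297, against 0.355 elsewhere. No interval was computed for this share or ratio, so they do not show that DHX9-mAb was sparser in these rows. Setting empty rows aside raises the ratio on both sides by construction. The most DHX9-mAb peaks in a row of this class, 4, lay on the plus strand at chr7:65618408-65622439 beside 7 DHX9-Rb peaks.

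Row sizes themselves differed. They depend in part on DHX9-mAb peaks, which can join DHX9-Rb peaks into 1 row, and so on the selection of chromosome 7. Rows of 10 to 19 held 21.7% of the DHX9-Rb peaks on chromosome 7 and 22.8% elsewhere, and rows of 20 or more held 19.9% and 27.8%. With each row size given the ratio it had on the other chromosomes, 274.9 DHX9-mAb peaks would be expected on chromosome 7, and the 221 found were 0.804 times that number. This was the lowest such value of the 23 chromosomes, with chromosome 13 next at 0.852 and chromosome 17 at 0.857. The value of chromosome 7 rests on the peak numbers it was selected on. No interval was computed, so the rank is only a description. By row size, against the ratios of all other sequences, the missing peaks numbered 23.0 in rows of 5 to 9, 20.1 in rows of 10 to 19, 10.6 in rows of 20 or more and 5.92 in rows of 2 to 4. Single peaks had a surplus of 4.58. In single peaks, rows of 2 to 4 and rows of 20 or more, the interval of the chromosome 7 ratio included the ratio elsewhere.

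The 19 rows with at least 10 DHX9-Rb peaks were spread between low and ordinary ratios. At or below 0.5 times the ratio of the other sequences were 7 of them (36.8%), where the background over all sequences was 19.9%. At or above 2 times it was 1, beside a background of 9.67%. Below 0.319 lay 13 of the 19, beside a background of 52.8%. Their median ratio was 0.214, and that of the 519 such rows elsewhere was 0.308.

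Against the 0.319 of all other sequences, the largest row was not short. It ran on the minus strand from 104953237 to 105027799 and held 30 DHX9-mAb and 91 DHX9-Rb peaks over 74.6 kb, a ratio of 0.33 (0.219 to 0.497). It crosses the border at 105 Mb and so counts in the bins on both sides. The next, on the minus strand from 152336110 to 152370594, had 11 and 34 (ratio 0.324). A plus-strand row from 102018231 to 102041740 had 12 and 32 (ratio 0.375). All 3 therefore lay at or slightly above the ratio of the other sequences. Rows of 20 or more DHX9-Rb peaks elsewhere had a higher ratio, 0.385. The ratios of all 3 were below that, with intervals that included it.

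The remaining rows of the 10 largest were lower, except the row starting at 44613882 described above. On the minus strand from 56102102 to 56117560 there were 5 DHX9-mAb and 21 DHX9-Rb peaks (ratio 0.238). The row from 152097661 to 152116782 had 4 and 19, and the row from 73018182 to 73029737 had 3 and 14, both on the minus strand. On the plus strand from 157022608 to 157040794 there were 3 and 14. The minus-strand row from 104631800 to 104649454 had 2 and 14 (ratio 0.143), and the row from 23473875 to 23496039 had 1 and 16 (ratio 0.0625, 0.0106 to 0.37). With the row starting at 44613882 at 0.867 (0.419 to 1.79), this row and the row starting at 23473875 were the only pair of the 10 whose intervals did not overlap.

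A single row with at least 10 DHX9-Rb peaks had no DHX9-mAb peak. It lay on the plus strand from 101762206 to 101788981 and held 11 DHX9-Rb peaks over 26.8 kb. A count of 0 beside 11 peaks allows up to 27.3 DHX9-mAb peaks per 100 DHX9-Rb peaks (3 counts over 11), and the Wilson interval of its ratio reached up to 0.349. The ratio of the other sequences, 0.319, lies between these limits, so they do not settle whether this row differed from it. The background of such empty rows was 2.97%.

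**Figure D5:**
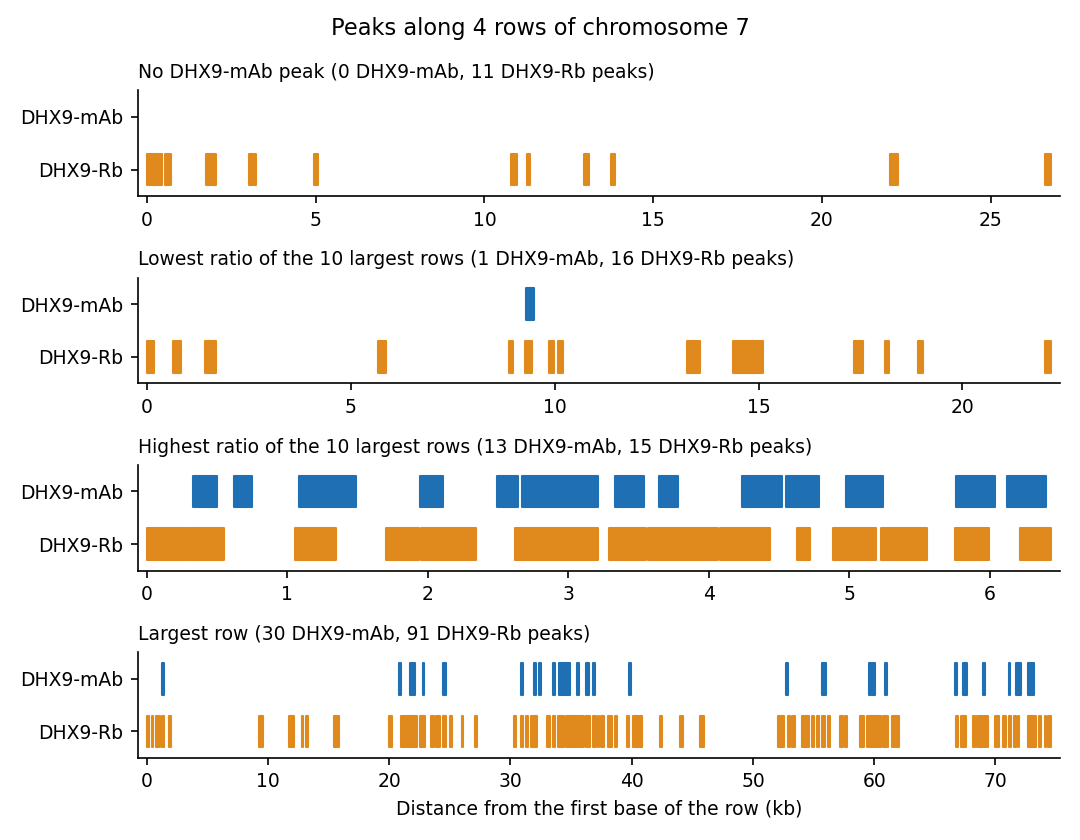
Peaks of DHX9-mAb (blue, upper line of each panel) and DHX9-Rb (orange, lower line) along 4 rows of chromosome 7, by distance from the first base of the row in kb. From top to bottom are the row with 0 DHX9-mAb and 11 DHX9-Rb peaks, the row with 1 and 16, the row with 13 and 15 and the largest row with 30 and 91.

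The 2 antibodies still met at the same positions on chromosome 7. On the same strand, and by at least 1 nt, 188 of the 221 DHX9-mAb peaks met one of DHX9-Rb, or 85.1% (79.8 to 89.2), and on the other sequences 88.1% did. Of the 896 DHX9-Rb peaks, 202 had a DHX9-mAb partner, or 22.5% (19.9 to 25.4), against 28.8% (28.2 to 29.5) elsewhere. This lower share follows in part from the selection of chromosome 7 for its few DHX9-mAb peaks. Of the 33 DHX9-mAb peaks without a partner, 24 lay in a row with DHX9-Rb peaks and 9 did not.

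The share of DHX9-Rb peaks with a partner was lower on chromosome 7 in each of 4 width classes, and the gap was widest among the widest peaks. Lower shares here too follow in part from the selection of chromosome 7, so they are only a description. Of those at least 300 nt wide, 47 of 133 had a DHX9-mAb partner on chromosome 7, or 35.3% (27.7 to 43.8), and 50.1% (48.5 to 51.6) did on the other sequences. From 200 to under 300 nt the shares were 22.8% (18.3 to 28.0) and 28.6%. From 150 to under 200 nt they were 18.4% (13.9 to 23.8) and 20.3%, and under 150 nt 19.4% (14.9 to 24.7) and 20.7%. In both these narrower classes the interval of chromosome 7 included the share of the other sequences. The 86 wide DHX9-Rb peaks without a partner were spread over 32 bins and 59 rows, with at most 7 in a bin.

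Median widths were ordinary for a chromosome. The median DHX9-Rb peak was 192 nt wide on chromosome 7 (interquartile range 145 to 252) and 201 nt on the other sequences (152 to 273). A 95% interval of the chromosome 7 median, taken from the ranked widths, was 185 to 198 nt and did not include 201 nt. Medians of the 23 chromosomes ran from 179 to 220 nt, and chromosome 7 was 9th from the lowest. Wide peaks of at least 300 nt made up 14.8% of DHX9-Rb peaks on chromosome 7 and 19.6% elsewhere. The median DHX9-mAb peak was 185 nt wide on chromosome 7 and 191 nt elsewhere. DHX9-Rb peaks with a partner had a median of 216 nt and those without 188 nt on chromosome 7, against 244 and 190 nt elsewhere.

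Distances to the nearest DHX9-mAb peak of the same strand follow in part from the selection of chromosome 7 for its few DHX9-mAb peaks, and the other sequences include far denser chromosomes. Chromosome 7 had 1.4 DHX9-mAb peaks per Mb, against 17.2 on chromosome 19. The values for DHX9-Rb peaks without a partner are therefore only a description. The median distance over 694 such peaks was 7444 nt on chromosome 7, against 2301 nt over 14739 peaks elsewhere. Within 1 kb of a DHX9-mAb peak were 29.1% of them, against 36.2% elsewhere, and beyond 100 kb were 23.2%, against 17.5%.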

How the data were processed

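Per the labels' protocols, irradiated cells were lysed, the protein was captured on antibody-coated beads, RNA was trimmed with RNase I, and barcoded adapters told antibodies and replicates apart, with random tags to merge PCR duplicates. Control and DHX9 samples were pooled ahead of reverse transcription, so the libraries are not fully separate. Bowtie2 2.2.6 and hg19 are named in the submitters' processing notes, and PEAKachu in the files' second column as the caller. The sources used here state neither the caller's version, settings, control and way of combining replicates nor the treatment of reads that map to several places, and any of them could change which peaks were called. The deposited values are peak starts and ends, counted from 1, and strands, and the score field is empty.

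Bins were filled by peak midpoints. Intervals of ratios were converted from the Wilson interval of the DHX9-mAb part of the peaks. Covered nucleotides are the union of each list on its strand. Regions named are the 6 bins with the largest shortfall, the 4 with the largest surplus, the 10 rows with the most DHX9-Rb peaks and rows of at least 10 with no DHX9-mAb peak, and other rows and bins were named after their values were seen. Members and comparisons were chosen with earlier results of these data known. Gene annotation of hg19 was not used here. The steps were tested on simulated data. Python 3.11.15, NumPy 2.4.6, SciPy 1.17.1, pandas 2.3.3 and matplotlib 3.10.9 were used.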

Additional observations from a re-analysis of the deposited data

How the results depend on the processing

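No paired analysis was possible because each list merges both replicates and no test was run. For the same reason no replicate could be left out. Relative to the other sequences the ratio of chromosome 7 was 0.773, and it stayed between 0.719 and 0.804 with peaks within 50 nt merged, in covered nucleotides, against chromosomes 1 to 22 and X, without the bin of the largest shortfall or surplus, by row size and as a median over bins. The last pair and the omission of the surplus bin were chosen after seeing the data, as was merging for rows. Low bins numbered 11 of 41 (26.8%, background 19.0%) with at least 5 DHX9-Rb peaks. Otherwise they numbered 5 to 8, or 23.1% to 31.8% of bins, beside backgrounds of 10.6% to 18.9%. With at least 20 peaks, 14 of 17 bins (82.4%) lay below the ratio of the others, where the background was 53.7%. Low rows numbered 22 of 49 (44.9%, background 27.1%) with at least 5 DHX9-Rb peaks. When 0.5 of a peak's width had to be overlapped, 76.0% of DHX9-mAb and 16.9% of DHX9-Rb peaks had a partner, against 79.9% and 22.2% elsewhere. Merging gave a median DHX9-Rb width of 198.5 nt, against 209 nt elsewhere. Fewer peaks per bin or row, a stricter overlap and joined peaks give these changes by construction. In covered nucleotides the bin from 105 to 106 Mb changed direction, at 0.969, and the cause was not tested. Rows of 5 to 9 DHX9-Rb peaks without DHX9-mAb made up 41.2% and 32.3% with gaps of 5 and 20 kb, against 19.6% and 21.7% elsewhere. The unknown depth limits every count.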
